A study of Drosophila melanogaster with 2 samples.

Results

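Aminoacyl-tRNA synthetases are the enzymes that join each amino acid to its transfer RNA (tRNA), and they were examined here as possible targets of CG10147, a fruit fly (Drosophila melanogaster) protein with predicted zinc fingers. The genes were chosen by symbol, as protein-coding genes of FlyBase annotation 6.54 named by 1 or 2 three-letter amino acid codes followed by RS, with or without the ending -m. This gave 33 of the 13945 protein-coding genes on arms 2L, 2R, 3L, 3R, 4 and X. Of these, 18 symbols had no ending and were taken as cytoplasmic, and 15 ended in -m and were taken as mitochondrial. The subunit genes alpha-PheRS and beta-PheRS have symbols outside this rule and are described with the related genes.

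The data were 2 chromatin immunoprecipitation (ChIP-seq) libraries, biological replicates 2 and 3 of a single group. Both came from whole embryos of mixed sex, collected from 0 to 24 hours, of a transgenic line with stable expression of CG10147 fused to green fluorescent protein (GFP) at its carboxyl end. The precipitation used an antibody against GFP, and the sonicated fragments were 200 to 800 bp long. Which promoter drives the transgene is not stated in the labels, and neither the control library nor embryos without the fusion protein were analysed here. In whole embryos, strong binding in few cells and weak binding in many cannot be told apart.

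Cells use separate sets of synthetases for the tRNAs of the cytosol and for those of the mitochondrion, and both sets are encoded in the nucleus. Some genes serve both compartments through alternative starts, so an amino acid without an -m gene need not lack a mitochondrial enzyme. In GluProRS the glutamyl and prolyl enzymes are fused in 1 protein. Mitochondrial tRNAs for glutamine are first charged with glutamate by GluRS-m, and an amidotransferase then converts the glutamate.

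Sequences under the strongest summits at synthetase promoters are shown because they are the DNA to which the leading peaks point. A summit is the position of highest signal in a peak, and IDR peaks are the authors' list thresholded by reproducibility between the replicates. Each line gives 100 bases centred on an IDR summit, read 5′ to 3′ on the strand of the named gene, from the RefSeq copy of Release 6, whose coordinates are those of dm6. No annotated exon overlapped these windows. Capitals mark matches on either strand to the motifs searched, which are described with the other sequence features. The windows lie upstream of ThrRS at chr2L:12103439-12103538 on the plus strand, IleRS at chr3L:22288429-22288528 on the plus strand, GlyRS at chr3L:15094836-15094935 on the plus strand, AsnRS at chr2L:19131986-19132085 on the minus strand and ProRS-m at chr3L:2651901-2652000 on the minus strand.
ThrRS: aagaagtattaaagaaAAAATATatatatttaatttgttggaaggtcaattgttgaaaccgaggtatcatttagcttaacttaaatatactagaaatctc
IleRS: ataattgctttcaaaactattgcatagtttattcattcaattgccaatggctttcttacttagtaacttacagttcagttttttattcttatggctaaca
GlyRS: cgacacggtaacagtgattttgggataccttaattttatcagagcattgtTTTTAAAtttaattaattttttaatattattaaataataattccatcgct
AsnRS: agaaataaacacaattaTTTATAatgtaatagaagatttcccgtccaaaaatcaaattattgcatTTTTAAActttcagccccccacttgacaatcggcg
ProRS-m: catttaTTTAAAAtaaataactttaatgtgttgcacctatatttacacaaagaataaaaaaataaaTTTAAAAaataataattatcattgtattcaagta

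The windows were low in G and C, from 15.0% in ProRS-m to 32.0% in AsnRS. ThrRS held a match to AAAATAT, GlyRS to TTTAAAA, AsnRS to TTTAAAA and TATAAA, and ProRS-m 2 matches to TTTAAAA. The window of IleRS held no match to any of the 8 motifs. The window of SerRS is not shown, because annotated exons covered nearly all of it.

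Peaks were found at 10 of the 33 synthetase promoters in the IDR list, 7 of 18 cytoplasmic genes (38.9%) and 3 of 15 mitochondrial genes (20.0%). A promoter peak was a summit within 500 bp of an annotated transcription start site (TSS) of the gene. The cytoplasmic genes were ThrRS, SerRS, IleRS, GlyRS, AsnRS, AlaRS and ValRS, and the mitochondrial genes were ProRS-m, ArgRS-m and LeuRS-m. Of all 13945 protein-coding genes, 2836 (20.3%) had such a peak. The mitochondrial share was thus near the background. The cytoplasmic share was above it, by counts that rest on 18 genes and carry no test, because the series holds 1 group of 2 libraries and genes are not replicates. When a summit counted only for the gene of its nearest protein-coding TSS, 4 of 18 cytoplasmic and 3 of 15 mitochondrial genes had an IDR peak, against 15.4% of all genes. The mitochondrial count includes LeuRS-m, whose summit was equally far from the start of a neighbour.

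Each replicate list held 30000 peaks, as did the pooled list called on both libraries together, and the IDR list held 4576. Every IDR row was a row of the pooled list at rank 4576 or better, so a place in it shows strength in the pooled data, not presence in each library. A partner summit in each of the replicate lists, at most 100 bp away, existed for 4117 (90.0%) of them. Signal is the authors' own value for each peak and ran from 145 to 4880 in the IDR list, with a median of 229. Because its scale differs between lists, ranks within each list were compared, with rank 1 the strongest. The lists carry no read counts, so the depth behind a value is unknown.

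In the wider lists the cytoplasmic genes again had the larger share. The replicate 2 list had a promoter peak at 12 of 18 cytoplasmic (66.7%) and 6 of 15 mitochondrial genes (40.0%), against 47.3% of all protein-coding genes. The replicate 3 list had the same counts, 12 of 18 and 6 of 15, against 46.2% of all genes. In the pooled list 10 cytoplasmic (55.6%) and 6 mitochondrial genes (40.0%) had one, against 44.8% of all genes. In the pooled and both replicate lists at once the counts were 10 cytoplasmic (55.6%) and 5 mitochondrial genes (33.3%), against 38.1% of all genes. The share was higher in the cytoplasmic than in the mitochondrial set in each of these 5 counts, but the lists share libraries and are not independent. The count over the pooled and both replicate lists asked for any promoter peak in each list, not for the same peak. With replicate summits at most 100 bp from the pooled summit, it was 8 of 18 cytoplasmic and 5 of 15 mitochondrial genes, against 32.1% of all genes. When a pooled summit counted only for the gene of its nearest protein-coding TSS, 7 of 18 cytoplasmic and 5 of 15 mitochondrial genes had one. The share of all genes was then 38.7%, and the cytoplasmic share was close to it.

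**Figure D1:**
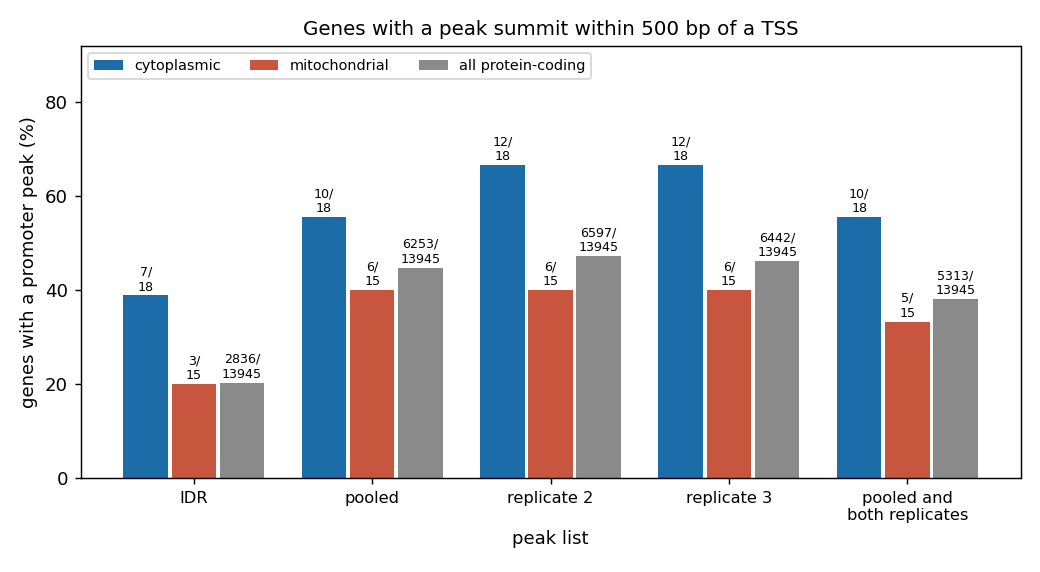
Share of genes (%) with a peak summit within 500 bp of a TSS in each peak list, for 18 cytoplasmic synthetase genes (blue), 15 mitochondrial synthetase genes (red) and all 13945 protein-coding genes (grey), with the counts above each bar. The blue bar is the highest and the red bar the lowest in every list, by small margins between red and grey in the IDR list (20.0% and 20.3%).

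ThrRS, the threonyl enzyme, had the strongest peak of the family. Its IDR peak (2L, 12103387 to 12103705) had a pooled signal of 569 and rank 469, with rank 480 in replicate 2 (signal 221) and 506 in replicate 3 (signal 350.3). The summit lay 262 bp upstream of the ThrRS TSS, in intergenic sequence. It was nearer to the TSS of Patsas on the opposite strand, 204 bp away. A weaker pooled summit 62 bp upstream of ThrRS (signal 93.3, rank 8477) shared the start of that region and had no summit within 100 bp in either replicate list.

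SerRS, the seryl enzyme, was close behind. The pooled peak (2L, 3037231 to 3037532) had a signal of 564 and rank 479, against rank 655 in replicate 2 (signal 188) and 417 in replicate 3 (signal 388). Its summit was 10 bp upstream of a SerRS TSS and 2 bp from a TSS of CG17260, within the 5' UTR of that opposite-strand gene. The replicate 2 summit lay 69 bp from it, on the SerRS side of the start. The promoter regions of these genes overlap, and the peak cannot be given to either gene.

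IleRS, the isoleucyl enzyme, had the third place in the family. Its peak (3L, 22288363 to 22288591) ranked 741 in the pooled list (signal 450.2), 715 in replicate 2 (signal 181) and 667 in replicate 3 (signal 304). The summit lay 186 bp upstream of IleRS and 284 bp from the divergent gene Hem, which encodes a subunit of the actin-regulating WAVE complex. ThrRS, SerRS and IleRS kept ranks between 417 and 741 in all 3 lists, well apart from the other synthetase genes with an IDR peak, the best of which ranked 1928 in the pooled list.

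GlyRS, the glycyl enzyme, was the only family member with 2 IDR summits. The stronger (3L, 15094832 to 15094943) had a signal of 255 and rank 1928, against rank 2616 in replicate 2 (signal 91.9) and 2204 in replicate 3 (signal 148). It lay 256 bp upstream of GlyRS, 162 bp from the TSS of Plp, a centrosomal pericentrin-like protein gene, and 167 bp from that of sstn. The weaker (3L, 15094898 to 15095281) was 52 bp upstream of GlyRS, with a signal of 184 and rank 3226, and ranked 6086 in replicate 2 and 4136 in replicate 3. Both summits were present within 100 bp in each replicate list. Their called regions overlap and the fragments were 200 to 800 bp long. Whether they are 2 separate binding positions was not tested.

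The IDR peaks of AsnRS and AlaRS rested mainly on replicate 3. AsnRS, the asparaginyl enzyme (2L, 19131844 to 19132227), had a signal of 208 and rank 2675, with the same summit at rank 1989 in replicate 3 (signal 159). Replicate 2 had no summit within 100 bp of it. Its nearest promoter peak was 234 bp upstream of AsnRS, at rank 6104 (signal 55.9), near a second pooled summit 283 bp upstream (signal 121, rank 5963). AlaRS, the alanyl enzyme (2L, 8381606 to 8381989), had a signal of 169.8 and rank 3607, with rank 2680 in replicate 3 (signal 130.1). In replicate 2 its only promoter peak was 366 bp upstream, at rank 17038 (signal 27.1). AlaRS was also the only one of the 10 genes whose IDR summit had no TSS of another gene within 500 bp.

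ValRS, the valyl enzyme, was counted through a summit near the edge of the window. The peak (2R, 13198183 to 13198566; signal 163, rank 3809) lay 475 bp upstream of ValRS but 38 bp from the TSS of Kdm4B, a histone demethylase gene on the other strand. It ranked 2627 in replicate 2 (signal 91.8) and 5010 in replicate 3 (signal 84.9). By position this is a Kdm4B promoter peak that falls in the reach of ValRS.

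The mitochondrial enzymes with IDR peaks all had weaker signals than ThrRS, SerRS, IleRS, GlyRS and AsnRS, but stronger ones than AlaRS and ValRS. ThrRS and GlyRS have no -m counterpart among the 33 genes, and genes that serve both compartments were not separated. ProRS-m, the prolyl enzyme (3L, 2651759 to 2652142), had a pooled signal of 192 and rank 3012, and its summit lay 101 bp upstream of the gene and 137 bp from the shared start of Snup and CG42304. It had rank 4459 in replicate 2 (signal 67.8) and no promoter peak in replicate 3. ArgRS-m, the arginyl enzyme (3R, 7886731 to 7887114), had a signal of 184 and rank 3199. The summit fell on the same base, 122 bp upstream of the gene, in replicate 2 (rank 3138, signal 82.8), replicate 3 (rank 4096, signal 96.6) and the pooled list. LeuRS-m, the leucyl enzyme (3L, 4825578 to 4825961), had a signal of 174 and rank 3506, with rank 4007 in replicate 2 (signal 72.4) and 3951 in replicate 3 (signal 99.0). That summit was midway between LeuRS-m and Dhc64C, the gene of a dynein heavy chain, 83 bp from each.

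Across the family the IDR signal of the strongest promoter peak had a median of 255 for the 7 cytoplasmic genes, from 163 to 569, and of 184 for the 3 mitochondrial genes, from 174 to 192. The median over all 2836 protein-coding genes with an IDR promoter peak was 257. The mitochondrial range lay within the cytoplasmic one, and the cytoplasmic median was close to that of all bound promoters.

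**Figure D2:**
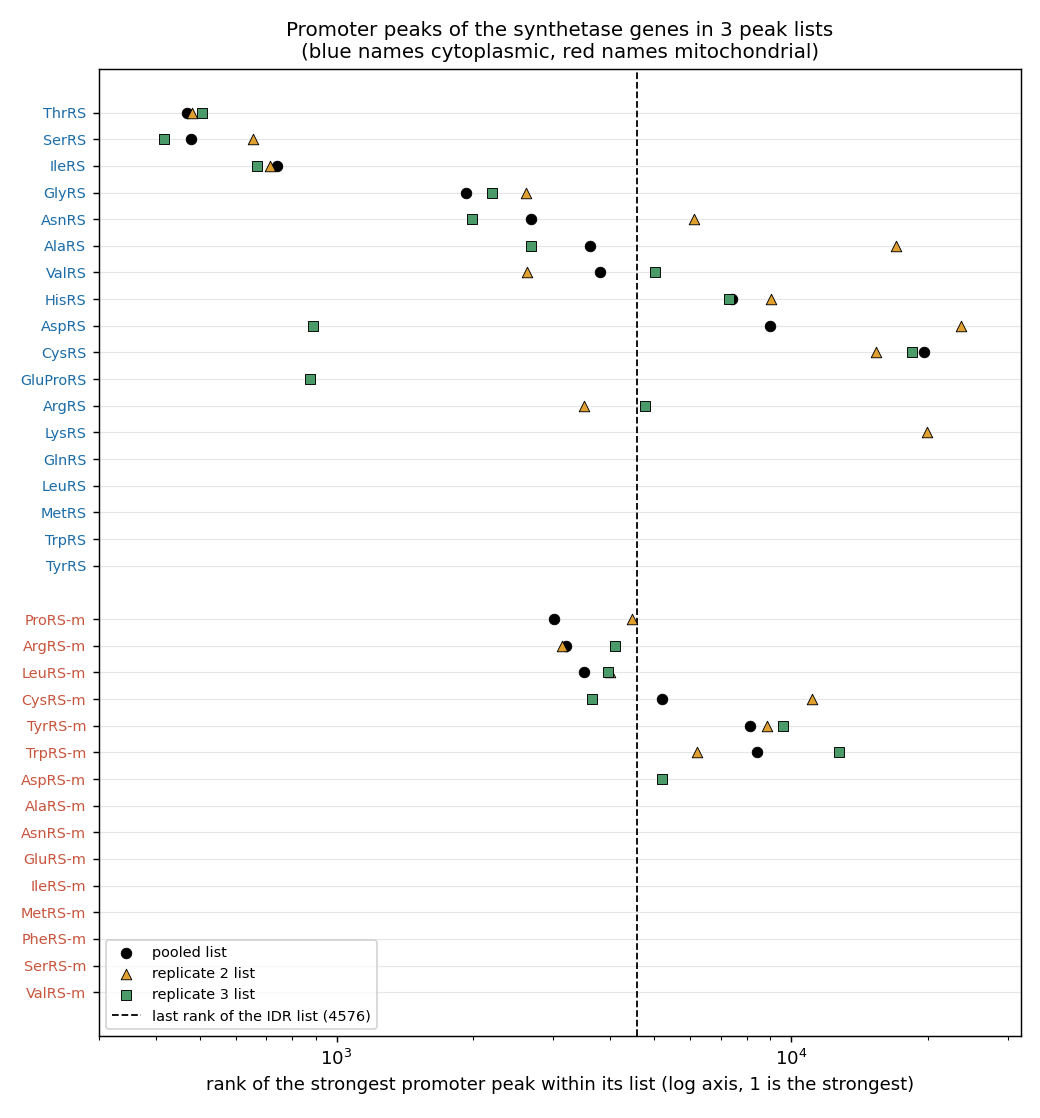
Rank of the strongest promoter peak of each synthetase gene within the pooled (circle), replicate 2 (triangle) and replicate 3 (square) lists, on a log axis with the strongest at the left; names in blue are cytoplasmic and in red mitochondrial, and a row without points has no promoter peak in any list. ThrRS, SerRS and IleRS lie together between ranks 417 and 741, while GluProRS and AspRS have a high rank in replicate 3 only.

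With the stricter requirement of a partner summit at most 100 bp away in each replicate list, 7 of the 33 genes kept an IDR promoter peak, against 18.3% of all protein-coding genes. These were the cytoplasmic genes ThrRS, SerRS, IleRS, GlyRS and ValRS (5 of 18, 27.8%) and the mitochondrial genes ArgRS-m and LeuRS-m (2 of 15, 13.3%). AsnRS and AlaRS dropped out for want of a replicate 2 summit, and ProRS-m for want of a replicate 3 summit.

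A further 6 genes had a promoter peak in the pooled list below the IDR threshold. Among the mitochondrial enzymes, CysRS-m came nearest to it with a signal of 133 and rank 5215, and it ranked 11126 in replicate 2 and 3646 in replicate 3. Its summit was 102 bp upstream of CysRS-m and 66 bp from O-fut1, the gene of an enzyme that adds fucose to Notch. TyrRS-m had a pooled signal of 96.5 (rank 8108) with replicate ranks of 8839 and 9628 and summits within 2 bp of each other. TrpRS-m had a pooled signal of 93.8 (rank 8416) and replicate ranks of 6211 and 12754.

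Among the cytoplasmic enzymes, HisRS had a pooled signal of 103 (rank 7416) at 8 bp downstream of its start, which is also annotated as a start of Bx, a LIM-only protein gene, and ranked 9031 in replicate 2 and 7315 in replicate 3. By the strongest promoter peak of each gene, CysRS was the weakest of the family in the pooled list, at a signal of 47.9 and rank 19623, and it was present in both replicate lists at ranks 15357 and 18432. CysRS also had an IDR peak 976 bp upstream, outside the window of 500 bp. AspRS had pooled summits 356 and 143 bp upstream of its outermost start, with signals of 89.2 and 54.8, and both lay nearer to starts of its divergent neighbour Lfg.

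GluProRS and AspRS had strong peaks in 1 library only. The GluProRS peak in replicate 3 (3R, 23958440 to 23958659) had a signal of 263 and rank 872 of 30000, 142 bp upstream of the gene and 118 bp from AP-1sigma. Neither the pooled list nor replicate 2 had a promoter peak at GluProRS, and the nearest pooled summit to one of its starts was 4670 bp away. The AspRS peak in replicate 3 (2R, 12879869 to 12880252) had a signal of 260.3 and rank 888, within introns of AspRS and Nmda1. Its summit lay 223 bp upstream of an internal AspRS start and nearer to a start of Nmda1, 169 bp away. This peak too was missing from the pooled and replicate 2 lists. Of the 1000 strongest peaks of replicate 3, 7 (0.700%) had no summit within 100 bp in either of those lists, and the peaks of GluProRS and AspRS were 2 of the 7. Of 984 peaks of replicate 2 on the arms at rank 1000 or better, 14 (1.42%) lacked a summit in both other lists.

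ArgRS showed another pattern. Its promoter had a peak in replicate 2 (rank 3501, signal 77.9) and in replicate 3 (rank 4785, signal 87.6), with summits 24 bp apart. These summits lay 189 and 213 bp upstream of ArgRS and nearer to the divergent gene CG8578, at 142 and 118 bp. The pooled list had no peak there, and its nearest summit was 5112 bp away. Of 12412 replicate 2 summits with a replicate 3 summit within 100 bp, 531 (4.28%) likewise had no pooled summit. Most of these were weaker than the ArgRS peak: at replicate 2 rank 4576 or better it was 49 of 3793. LysRS had weak peaks in replicate 2 alone, at ranks 19911 and 22657. Their summits were nearer to Hecw (174 and 375 bp) than to LysRS (236 and 437 bp). AspRS-m had a peak in replicate 3 alone, at rank 5202 and 2 bp from its start.

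The other 13 genes had no promoter peak in any list. These were the cytoplasmic enzymes GlnRS, LeuRS, MetRS, TrpRS and TyrRS, and the mitochondrial enzymes AlaRS-m, AsnRS-m, GluRS-m, IleRS-m, MetRS-m, PheRS-m, SerRS-m and ValRS-m. The nearest pooled summit to their starts lay between 2605 bp (SerRS-m) and 20882 bp (TrpRS) away, with a median of 6599 bp. The median was 6822 bp over the 6310 protein-coding genes without a promoter peak in any list. Among all 33 genes, AspRS and HisRS were the only ones with a pooled summit within the gene more than 500 bp from a start.

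The 2 compartments were also compared amino acid by amino acid. Of 14 amino acids with a gene in each set, counting GluProRS for both glutamate and proline, 5 had an IDR promoter peak at the cytoplasmic gene alone (alanine, asparagine, isoleucine, serine and valine). Another 3 had it at the mitochondrial gene alone (arginine, leucine and proline), 6 had it at neither and 0 at both. With 10 synthetase genes bound in all, and 20.3% of all protein-coding genes, few such pairs would share a peak in any case. In the pooled list cysteine had a peak at both of its genes, 6 amino acids at the cytoplasmic gene alone, 5 at the mitochondrial gene alone and 2 at neither. No test was made of this pattern.

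Summits at synthetase promoters lay upstream of the start. All 11 IDR summits were upstream of the nearest start of the synthetase gene, at 10 to 475 bp, and 10 of the 11 were in intergenic sequence. Over all protein-coding genes with an IDR promoter peak, the strongest summit was upstream in 2367 and downstream in 461. Of the 11 summits, 10 were also within 500 bp of a start of another gene. The synthetase start was the nearest in 6 cases, that of another gene in 4 (ThrRS, SerRS, ValRS and the stronger GlyRS summit), and the distances tied in 1 (LeuRS-m).

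**Figure D3:**
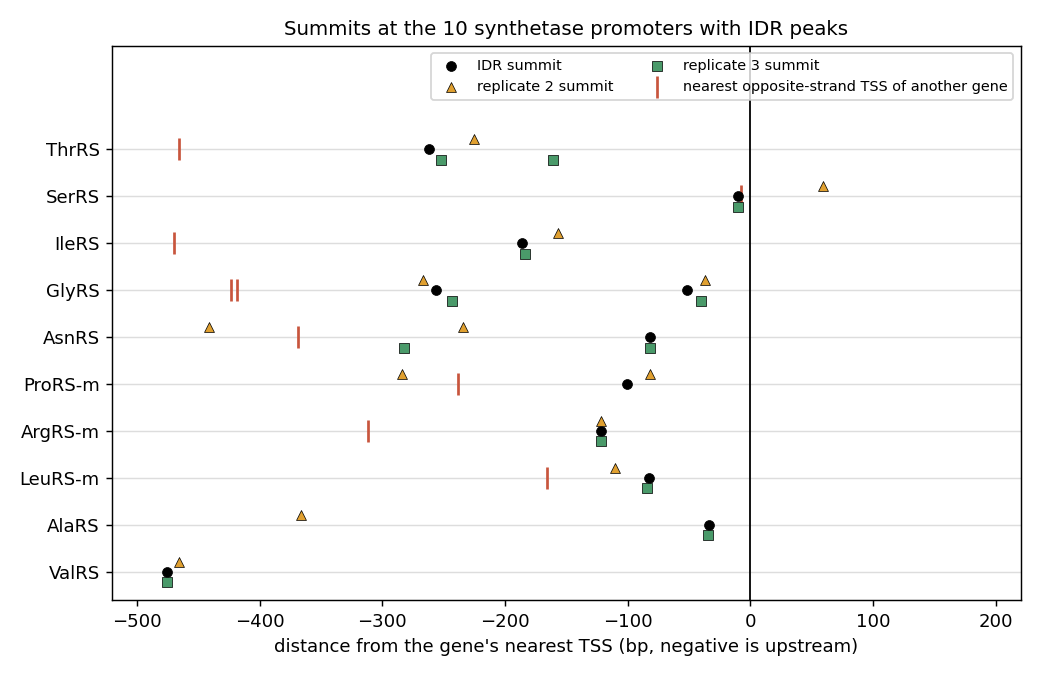
Position of the summits (bp from the gene's nearest TSS, negative upstream) at the 10 synthetase promoters with IDR peaks, ordered by IDR rank, for the IDR (circle), replicate 2 (triangle) and replicate 3 (square) lists; red bars mark the nearest opposite-strand TSS of each neighbouring gene within 500 bp. Replicate summits sit on or beside the IDR summit in most rows, and those of AsnRS and AlaRS in replicate 2 lie apart from it.

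The arrangement of the promoters differed between the compartments. An opposite-strand TSS of another gene lay within 500 bp upstream of 14 of 18 cytoplasmic genes (77.8%) and 7 of 15 mitochondrial genes (46.7%), against 29.6% of all protein-coding genes. Such genes carried IDR promoter peaks at a higher rate throughout the genome. A summit counted for every gene with a start within 500 bp, so such a gene can also be counted through its neighbour's peak. How far this raised the rate was not tested. Within this arrangement, 5 of 14 cytoplasmic (35.7%) and 3 of 7 mitochondrial synthetase genes (42.9%) had an IDR peak, against 36.7% of all such protein-coding genes. In the IDR list the shares of both sets with such a neighbour were thus close to the background of that arrangement. Among genes without an opposite-strand neighbour, 2 of 4 cytoplasmic (AlaRS and ValRS) and 0 of 8 mitochondrial genes had one, against 13.4% of all such genes. ValRS falls here because the start of Kdm4B lies just beyond 500 bp upstream of its own. In the pooled list the sets lay further from the background of their arrangement. With an opposite-strand neighbour 6 of 14 cytoplasmic (42.9%) and 5 of 7 mitochondrial genes (71.4%) had a peak, against 60.6% of all such genes, and without one 4 of 4 and 1 of 8, against 38.2%. The part of promoter arrangement in the difference between the compartments was not tested.

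**Figure D4:**
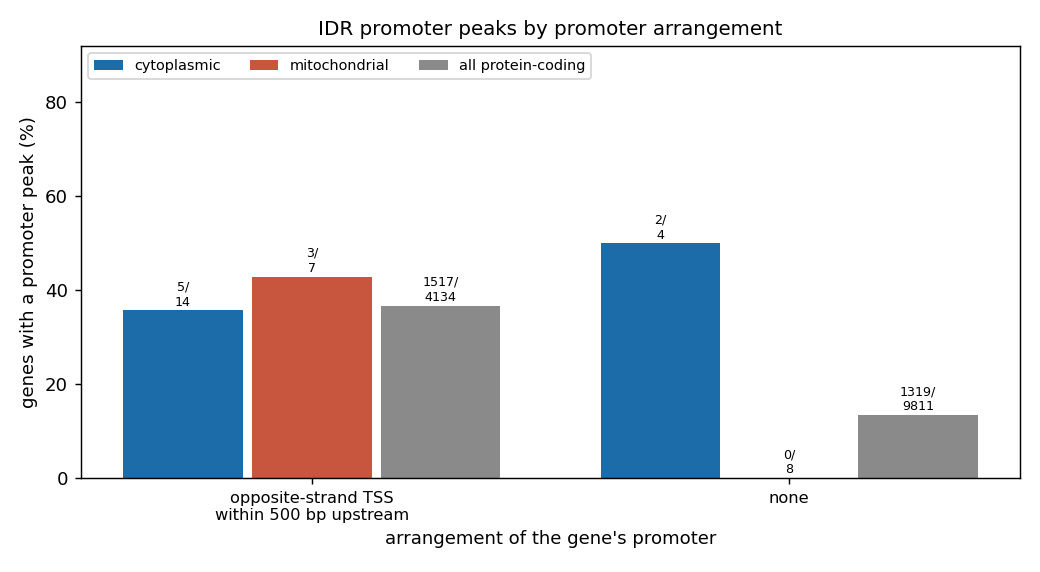
Share of genes (%) with an IDR promoter peak, split by whether an opposite-strand TSS of another gene lies within 500 bp upstream, for cytoplasmic synthetase (blue), mitochondrial synthetase (red) and all protein-coding genes (grey), with counts above the bars. With such a neighbour the 3 bars are close, at 35.7%, 42.9% and 36.7%.

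Base composition at the synthetase summits differed from that of other bound promoters by less than its spread. This spread is the SD of single windows, which does not measure the uncertainty of a mean, and no test was made. The 200 bp around the 11 IDR summits had a mean GC content of 32.7% ± 7.9 (SD), against 35.5% ± 8.0 at all 2306 IDR summits of protein-coding promoters. The 200 bp upstream of the outermost TSS had 34.4% ± 8.16 in the 33 synthetase genes and 38.6% ± 8.83 in all 13945 genes, and synthetase genes with and without an IDR peak differed by less than their spread (32.5% ± 9.46, n = 10, and 35.2% ± 7.60, n = 23).

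The 8 motifs were searched on both strands, and matches may overlap, since the 3 motifs made of A and T alone can share a stretch. In the 11 summit windows, TATAAA, the core of the TATA box, was in 7 (63.6%, against 37.9% of all 2306), AAAATAT in 5 (45.5%, against 29.7%) and TTTAAAA in 4 (36.4%, against 25.8%). GAGAG, bound by the GAGA factor, was in 2 (18.2%, against 19.4%). TATCGATA, the site of Dref, was in 1 (AlaRS; 9.09%, against 7.72%), GGTCACAC, the core of the site of M1BP, in 1 (ValRS; 9.09%, against 4.34%), and CACGTG, an E-box, in 1 (LeuRS-m; 9.09%, against 2.56%). TTGCATCA, part of the element bound by ATF4-type factors of the amino acid response, was in 0, against 0.217%.

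In the 200 bp upstream of the outermost TSS, TATCGATA was present at 4 of 18 cytoplasmic genes (AlaRS, ArgRS, IleRS and TrpRS; 22.2%) and 0 of 15 mitochondrial genes, against 7.29% of all promoters. AlaRS and IleRS had an IDR peak, while ArgRS and TrpRS had none. TATAAA was at 10 cytoplasmic (55.6%) and 6 mitochondrial genes (40.0%), against 36.9%, and TTTAAAA at 6 (33.3%) and 6 (40.0%), against 21.5%. AAAATAT was at 5 (27.8%) and 3 (20.0%), against 22.6%. Few synthetase promoters held the others: GAGAG was at 3 of 33 (9.09%, against 22.1%), CACGTG at 2 (6.06%, against 2.22%), GGTCACAC at 1 (3.03%, against 3.70%) and TTGCATCA at 0 (against 0.509%).

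Of 15 related genes, 5 had an IDR promoter peak and 6 a pooled peak, against 20.3% and 44.8% of all protein-coding genes. Alpha-PheRS and beta-PheRS encode the subunits of the cytoplasmic phenylalanyl enzyme and differed in binding. The alpha-PheRS promoter had an IDR signal of 202 (rank 2794, with rank 2792 in replicate 2 and 3060 in replicate 3), and beta-PheRS had no promoter peak in any list. Slimp, a relative of mitochondrial SerRS, had a signal of 158 (rank 3993, with ranks 5171 and 3564 in replicates 2 and 3). SerRS-m itself had no promoter peak.

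GatA, GatB and GatC encode the subunits of the mitochondrial amidotransferase that completes glutamine tRNAs. GatA had an IDR signal of 272 (rank 1729, with rank 1116 in replicate 2 and 2780 in replicate 3), which was above the signals of all mitochondrial synthetase genes. GatB had no promoter peak, and GatC had peaks in replicate 2 only, the stronger at rank 10246. GluRS-m, which acts before this enzyme, had none.

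AIMP1, AIMP2 and AIMP3 encode scaffold proteins known from the multi-synthetase complex of mammals. None had an IDR promoter peak. AIMP3 had a pooled peak (signal 89.2, rank 9007) that was found again in replicate 2 alone, at rank 18578.

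The elongation factor gene eEF1alpha1, whose protein carries charged tRNAs to the ribosome, had 2 IDR summits, the stronger with a signal of 165 and rank 3768. Its relative eEF1alpha2 and the mitochondrial factor gene mEFTu1 had promoter peaks in replicate 2 only, at ranks 22602 and 6383 for the strongest, and mEFTu2 had none. Of the regulators of the amino acid response, crc, the fly ATF4, had an IDR signal of 176 (rank 3463, with ranks 6334 and 3811 in replicates 2 and 3). Gcn2, the kinase that senses uncharged tRNAs, had no promoter peak in any list.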

How the data were processed

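ChIP-seq peak lists of 2 libraries were used. Per the deposited text lists of each sample's files, the authors called peaks on each replicate and on both alignments pooled, each with a control, on assembly dm6, and thresholded the IDR list from these. The peak caller, aligner and filters are not named there. The authors deposited a signal value for each peak, whose normalization is not given, and a −log10 q-value, which was not used for ranking because it stops at a maximum.

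Gene models were those of FlyBase 6.54 as distributed in Ensembl release 115, without transposable elements, and sequence from the Release 6 assembly; every peak ended within its arm. A summit within 500 bp of a TSS gave a promoter peak. Summits within 100 bp were matched between lists. The main count of genes with a peak in the pooled and both replicate lists used no such match. No test was made: counts are set beside those of all protein-coding genes. The assignment was tested on simulated data. All family genes were named. Members, lists and motifs were chosen with earlier results of these data known. Python 3.11.15, pandas 2.3.3 and numpy 2.4.6 were used.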

Additional observations from a re-analysis of the deposited data

How the results depend on the processing

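The counts of synthetase genes with a promoter peak were recomputed with other windows, starts and lists. Among the 2288 strongest IDR peaks the count was 4 of 33, 4 cytoplasmic (ThrRS, SerRS, IleRS and GlyRS) and 0 mitochondrial, against 10, 7 and 3 among all IDR peaks; this setting keeps fewer peaks, and its share of all protein-coding genes was 11.9%. When a summit counted only for its nearest protein-coding TSS, 4 cytoplasmic genes remained, since the summits of ThrRS, SerRS and ValRS were nearer to a neighbour, and 3 mitochondrial genes, against 15.4% of all genes. LeuRS-m was kept through a tie with Dhc64C. With replicate summits required within 50 bp of the pooled summit, 6 cytoplasmic and 4 mitochondrial genes had a peak in the pooled and both replicate lists. Without that limit the counts were 10 and 5. Over all genes the share was 22.5%, against 38.1%. The IDR count ran from 9 (without replicate 3) to 11 (without replicate 2) when the 4576 strongest peaks of 1 replicate were used, from 6 to 8 for cytoplasmic genes and 3 in each for mitochondrial genes, with 20.6% of all genes either way. The pooled count became 18 in each replicate list alone (12 cytoplasmic, 6 mitochondrial). With the nearest protein-coding TSS only, the pooled count was 12 (7 cytoplasmic, 5 mitochondrial), against 38.7% of all genes. In the other settings run for these counts (TSS windows of 200 and 1000 bp, the outermost TSS, region overlap, match distances of 100 and 200 bp), each stayed within 1.5 times its main value. Of 18 comparisons of a gene's percentile of signal between the pooled and a replicate list, over the 9 IDR-bound genes with a peak in each replicate, 9 moved by more than 1 SD of the replicates. That SD rests on 2 values, so slight shifts such as ThrRS (98.4 pooled, 98.3 in replicate 3) count as moved. The largest was for AlaRS (88.0 pooled, 43.2 in replicate 2), between different summits, 34 and 366 bp upstream. No paired analysis was possible because the series holds a single group. Read depth is unknown, so absence of a peak means only absence from a list.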

Other observations

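Synthetases fall into class I and class II by the fold of their catalytic domain. Both groupings described here were applied after the peaks had been seen, carry no test and are given as counts. Among cytoplasmic genes, 5 of 8 class II genes (AlaRS, AsnRS, GlyRS, SerRS and ThrRS) and 2 of 9 class I genes (IleRS and ValRS) had an IDR promoter peak, and GluProRS, which holds a domain of each class, had none. In the pooled list the counts were 7 of 8 and 3 of 9. Over all protein-coding genes the shares were 20.3% in the IDR list, which the class I count was near, and 44.8% in the pooled list. The mitochondrial genes were not grouped by class, so these counts do not speak for them. AlaRS-m, AsnRS-m and SerRS-m had no promoter peak in any list, although their cytoplasmic class II counterparts had IDR peaks. IleRS-m and ValRS-m had none either.

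In mammals 8 cytoplasmic synthetase genes encode parts of the multi-synthetase complex, those for arginine, aspartate, glutamine, glutamate with proline, isoleucine, leucine, lysine and methionine. Of their fly counterparts, 1 of 8 (IleRS) had an IDR promoter peak, against 6 of the 10 other cytoplasmic genes. In the pooled list 2 of 8 and 8 of 10 had a peak. In any list 5 of 8 and 8 of 10 had one, because the peaks of ArgRS, GluProRS and LysRS were found in replicate lists only. The shares over all protein-coding genes were 20.3% in the IDR list, 44.8% in the pooled list and 54.8% in any list, and the count of 5 of 8 was near the last of these. All 8 complex genes had an opposite-strand TSS within 500 bp upstream, whereas AlaRS, CysRS, HisRS and ValRS among the others did not. Over all protein-coding genes of that arrangement the shares were 36.7% in the IDR list and 60.6% in the pooled list. The part of arrangement in this difference was not tested. Of the scaffold genes, AIMP3 had a pooled and a replicate 2 peak, and AIMP1 and AIMP2 had none.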
